A study of Mus musculus with 31 samples.

Results

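Ribosome biogenesis genes encode the proteins that make ribosomes, and Myc encodes a transcription factor that drives many of them. The set held 37 genes chosen by name, Myc among them, out of 45706 gene identifiers in the count tables. All 37 were found and all 37 passed the filter on low counts in every comparison. They were sorted by role into Myc itself, 6 nucleolar proteins, 5 genes of the RNA polymerase I machinery, 4 proteins of box C/D and 4 of box H/ACA small nucleolar RNPs, 9 small-subunit assembly factors and 8 large-subunit assembly factors.

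RNA was sequenced from long-term haematopoietic stem cells (HSC) and multipotent progenitors (MPP) sorted from the bone marrow of wild-type C57BL/6 mice, 10 weeks old per the labels. Mice were given 1 mg of β-glucan, a polysaccharide of fungal cell walls, or its vehicle PBS, by the intraperitoneal route. The 8 groups were MPP of β-glucan mice and of PBS mice at day 28 (4 libraries each), HSC of β-glucan mice (3 libraries) and of PBS mice (4 libraries) at day 7, HSC of β-glucan mice and of PBS mice at day 28 (4 each), and HSC of β-glucan mice and of PBS mice that also received 150 mg/kg of 5-fluorouracil (5-FU) on day 7 and were taken 14 days after it (4 each). 5-FU is a drug that kills dividing cells. The labels do not say whether a library is 1 mouse or a pool, and p-values therefore describe only how these libraries spread, which may be technical.

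Counts per library ran from 19331663 to 39485556, with a median of 29751430. The column names of the tables print neither the day nor 5-FU, and a table was matched to its set by its cells and its number of libraries, so the day and 5-FU labels of a whole table rest on that match. In 2 of the 3 tables the treatment is given by a single letter, taken here as the initial of PBS (P) or of glucan (G). The MPP library of PBS replicate 1 carries a stem cell tag in its labels against an MPP title, which was followed. Of the stem cell markers tested at day 28, 7 of 12 were lower and 2 higher in MPP of β-glucan mice, and 6 of 11 were lower and 1 higher in MPP of PBS mice. Slamf1, which marks long-term stem cells, averaged 1.39 CPM in MPP and 5.30 CPM in HSC of β-glucan mice, and 1.19 CPM in MPP and 5.98 CPM in HSC of PBS mice. Ly6a, the Sca-1 antigen, went the other way, with 55.7 CPM in MPP and 27.8 CPM in HSC of β-glucan mice, and 61.7 CPM in MPP and 35.9 CPM in HSC of PBS mice. Of 6 progenitor markers 4 were higher in MPP in each treatment. Flt3, a receptor of progenitors, averaged 62.2 CPM in MPP and 17.8 CPM in HSC of β-glucan mice at day 28. In PBS mice it averaged 34.3 CPM in MPP and 16.7 CPM in HSC. At day 7 Flt3 in HSC was above these MPP levels, at 133 CPM in β-glucan mice and 177 CPM in PBS mice. The 10 erythroid markers held 12.7 to 16.2% of the counts in MPP and 16.3 to 18.04% in HSC of β-glucan mice at day 28, and 15.4 to 18.2% in MPP and 18.5 to 19.5% in HSC of PBS mice.

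A ribosome starts in the nucleolus, where RNA polymerase I copies the ribosomal DNA into a long precursor RNA. Box C/D and box H/ACA small nucleolar RNPs methylate and pseudouridylate that precursor, and assembly factors fold, cut and export the small and large subunits. Myc dimerises with Max on the E-box CACGTG and activates polymerase I factors, nucleolar proteins and assembly factors. Stem cells in the marrow are known for a low rate of protein synthesis, which is higher in progenitors.

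Promoters were read from RefSeq, build GRCm38.p6, as windows of 300 bases with the first transcribed base at position 251. A window was found for 32 of the 37 genes, 40 windows in all; Myc, Npm1, Fbl, Bop1 and Rrp12 are named only. CACGTG, searched on both strands (it is its own reverse complement), stood in 9 of the 40 windows, 22.5%, against 7.15% of all 32851 windows of the table. The genes were Ltv1, Mybbp1a, Nop2, Pes1, Pno1, Rrn3, Tsr1, Utp20 and Wdr43. Of the other motifs, both strands searched and overlaps between motifs kept, the ETS core GGAAG stood in 80.0% of the windows against 71.4% of all, TATAAA in 5.0% against 13.6%, and CCAAT in 32.5% against 37.4%. A match is a description of the letters, not a bound site. The 5 windows below belong to genes with CACGTG and the smallest p between MPP and HSC of β-glucan mice, and show where the E-box, in capitals, lies; each is written 5′ to 3′ on the strand of its gene.
Mybbp1a promoter, chr11:72441077-72441376, + strand: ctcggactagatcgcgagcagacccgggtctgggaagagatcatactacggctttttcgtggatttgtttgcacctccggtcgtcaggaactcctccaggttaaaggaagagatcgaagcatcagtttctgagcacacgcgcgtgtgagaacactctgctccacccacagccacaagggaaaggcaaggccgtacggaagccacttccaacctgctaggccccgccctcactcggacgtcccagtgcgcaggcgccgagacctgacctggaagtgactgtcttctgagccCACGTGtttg
Nop2 promoter, chr6:125131633-125131932, + strand: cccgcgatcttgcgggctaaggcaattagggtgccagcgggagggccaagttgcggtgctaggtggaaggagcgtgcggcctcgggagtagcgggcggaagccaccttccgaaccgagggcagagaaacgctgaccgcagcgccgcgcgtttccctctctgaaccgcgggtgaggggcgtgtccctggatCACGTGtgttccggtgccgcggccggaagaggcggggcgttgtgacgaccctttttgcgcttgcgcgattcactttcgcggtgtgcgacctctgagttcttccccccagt
Tsr1 promoter, chr11:74897830-74898129, + strand: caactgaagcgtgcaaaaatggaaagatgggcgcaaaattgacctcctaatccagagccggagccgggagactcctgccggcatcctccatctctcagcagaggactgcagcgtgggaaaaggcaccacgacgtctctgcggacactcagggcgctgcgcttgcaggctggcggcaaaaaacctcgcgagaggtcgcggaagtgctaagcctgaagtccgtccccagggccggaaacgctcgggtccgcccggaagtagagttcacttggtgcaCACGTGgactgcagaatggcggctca
Wdr43 promoter, chr17:71615965-71616264, + strand: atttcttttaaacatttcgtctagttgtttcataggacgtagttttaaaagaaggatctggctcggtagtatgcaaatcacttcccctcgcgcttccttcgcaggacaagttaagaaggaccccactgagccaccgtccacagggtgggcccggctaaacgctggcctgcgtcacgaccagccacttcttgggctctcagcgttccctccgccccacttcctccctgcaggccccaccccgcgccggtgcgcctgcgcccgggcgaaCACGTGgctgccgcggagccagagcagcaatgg
Pes1 promoter, chr11:3963725-3964024, + strand: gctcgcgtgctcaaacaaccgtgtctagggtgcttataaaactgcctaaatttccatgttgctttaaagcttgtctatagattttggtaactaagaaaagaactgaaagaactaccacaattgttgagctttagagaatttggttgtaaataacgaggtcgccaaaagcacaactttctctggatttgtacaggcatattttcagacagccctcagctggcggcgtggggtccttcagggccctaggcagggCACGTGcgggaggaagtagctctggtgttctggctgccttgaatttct
The E-box began at position 291 of the window in Mybbp1a, 191 in Nop2, 275 in Tsr1, 268 in Wdr43 and 253 in Pes1. In 4 of these 5 it thus lay just after the first transcribed base, and in Nop2 it began 60 bases before it. Of the 9 genes with the motif, Pno1, Rrn3 and Utp20 passed the test in neither comparison of MPP with HSC.

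MPP were set against HSC at day 28 in mice of each treatment. Most of the 37 genes were higher in MPP, and none was lower by the test. In β-glucan mice 28 of 37 genes were higher, 75.7%, where 35.6% of the 15945 genes tested passed in either direction and 17.7% were higher. In PBS mice 22 of 37 were higher, 59.5%, where 21.7% of the 16122 genes tested passed and 9.58% were higher. Calls are by edgeR's quasi-likelihood test at a Benjamini-Hochberg adjusted p under 0.05 over all genes tested. The median log2 fold change of the 37 genes was 0.37 in β-glucan mice and 0.29 in PBS mice, with 33 and 34 of them positive, against medians of -0.01 and -0.02 over all genes tested. Without the MPP library of PBS replicate 1, which carries the stem cell tag, 21 of those 22 were still called, where 2004 genes in all were, against 3493 with it. Summed over the 37 genes, MPP had 4607 to 4800 CPM and HSC 3294 to 3497 CPM in β-glucan mice, and MPP had 4351 to 4582 CPM and HSC 3272 to 3578 CPM in PBS mice, with no overlap in either. CPM is the usual counts-per-library scale, here on library totals adjusted by TMM, which corrects for differences in RNA composition.

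**Figure D1:**
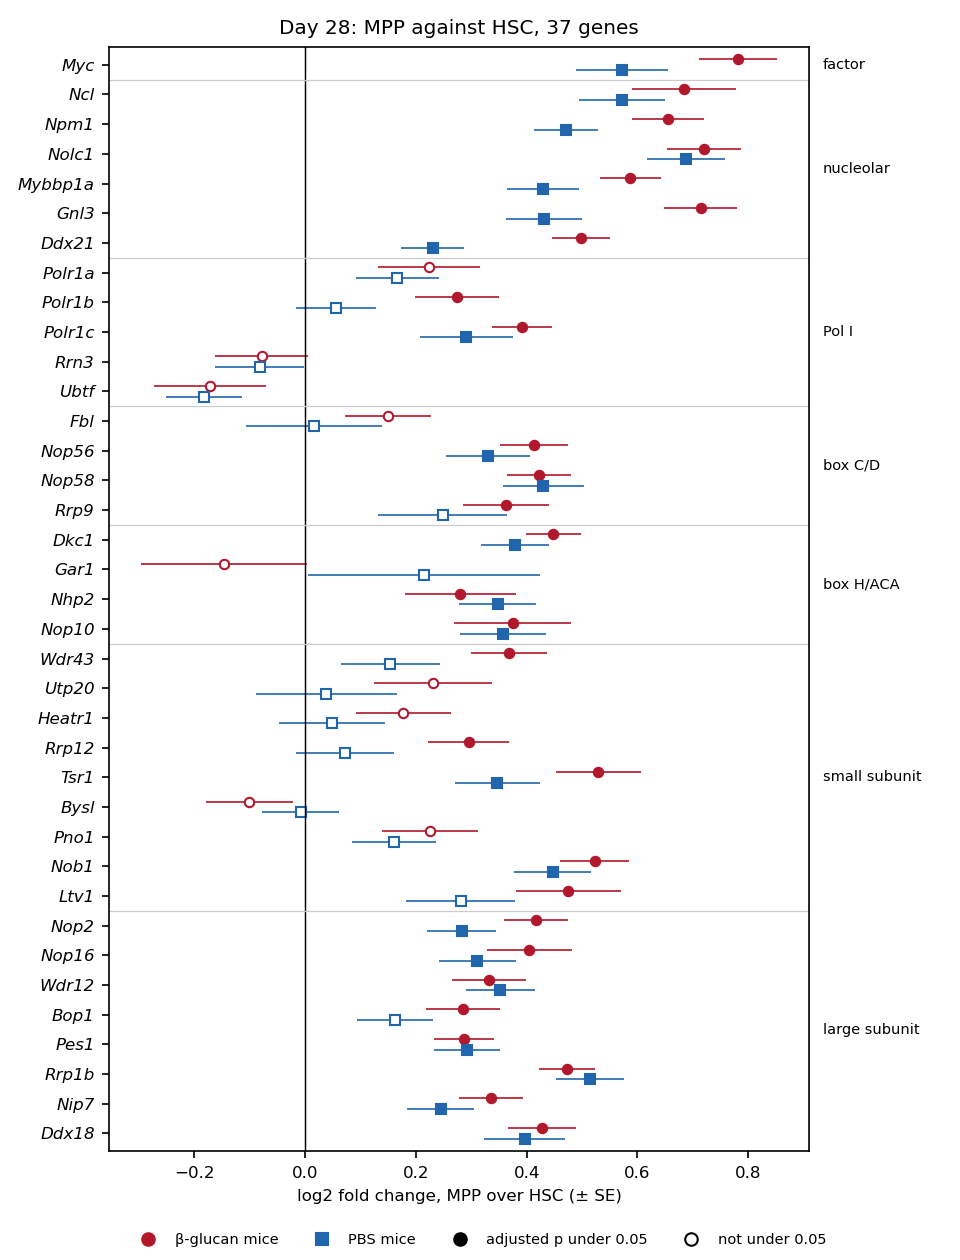
The log2 fold change of MPP over HSC at day 28 is plotted on the x axis for each of the 37 genes, grouped by role, with bars for the SE; red circles are β-glucan mice and blue squares PBS mice (4 libraries per group), and filled symbols passed an adjusted p of 0.05. Myc and Nolc1 reach 0.78 and 0.72 in β-glucan mice, while Rrn3, Ubtf and Bysl lie left of 0 in both treatments and are open.

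Myc (chromosome 15, 61985341 to 61990374, + strand, mm10) was among the genes with the largest differences. It stood at 272, 291, 302 and 332 CPM in MPP and at 165, 176, 180 and 177 CPM in HSC of β-glucan mice. In PBS mice it stood at 262, 227, 237 and 244 CPM in MPP and at 180, 146, 147 and 176 CPM in HSC. Every MPP library was above every HSC library of both treatments. The log2 fold change was 0.78 ± 0.07 (SE, edgeR adjusted p = 3.55e-05) in β-glucan mice and 0.57 ± 0.08 (edgeR adjusted p = 0.000863) in PBS mice.

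All 6 nucleolar genes were higher in MPP in both treatments, with a median log2 fold change of 0.67 in β-glucan mice and 0.45 in PBS mice. Ncl encodes nucleolin, an abundant nucleolar protein that binds precursor RNA. It stood at 669, 744, 748 and 725 CPM in MPP and at 399, 431, 548 and 421 CPM in HSC of β-glucan mice, and at 759, 694, 675 and 691 CPM in MPP and 522, 418, 469 and 474 CPM in HSC of PBS mice. The groups did not overlap, although HSC of β-glucan replicate 3 was well above the other 3 (log2 fold changes 0.68 ± 0.09 in β-glucan mice and 0.57 ± 0.08 in PBS mice). Npm1, nucleophosmin, a nucleolar chaperone, stood at 582, 644, 595 and 608 CPM in MPP and at 378, 393, 422 and 352 CPM in HSC of β-glucan mice, and at 566, 558, 571 and 566 CPM in MPP and 407, 387, 402 and 425 CPM in HSC of PBS mice. Its libraries separated by cell type in both treatments, with log2 fold changes of 0.66 ± 0.06 and 0.47 ± 0.06 (adjusted p 5.99e-05 and 0.000344). Npm1 shares 40.9% of its stretches of 50 bases with transcripts of 11 other genes, so its counts are uncertain.

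Nolc1 encodes a nucleolar phosphoprotein that binds small nucleolar RNPs and had the smallest p of the set in PBS mice. It stood at 152, 160, 147 and 142 CPM in MPP and at 85.1, 93.1, 102 and 85.1 CPM in HSC of β-glucan mice, and at 150, 145, 148 and 154 CPM in MPP and 99.0, 82.4, 88.2 and 99.0 CPM in HSC of PBS mice. The lowest MPP library was 142 CPM and the highest HSC library 102 CPM (log2 fold changes 0.72 ± 0.07 and 0.69 ± 0.07). Gnl3, nucleostemin, a nucleolar GTPase, stood at 66.3, 67.2, 60.5 and 69.1 CPM in MPP and at 38.9, 43.4, 40.6 and 37.9 CPM in HSC of β-glucan mice, and at 63.6, 59.7, 58.1 and 62.8 CPM in MPP and 45.7, 44.1, 42.0 and 48.1 CPM in HSC of PBS mice. The cell types did not overlap (log2 fold changes 0.71 ± 0.07 in β-glucan mice and 0.43 ± 0.07 in PBS mice). Mybbp1a, a nucleolar Myb-binding protein, had log2 fold changes of 0.59 and 0.43, and Ddx21, an RNA helicase of the nucleolus, 0.50 and 0.23.

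The polymerase I machinery was mixed. Polr1c, a subunit shared by RNA polymerases I and III, was higher in MPP of both treatments (log2 fold changes 0.39 ± 0.05 in β-glucan mice and 0.29 ± 0.08 in PBS mice). Polr1b, the second largest subunit, passed in β-glucan mice, at 0.27 ± 0.08, and not in PBS mice, at 0.06 ± 0.07. The test of the difference between those values did not pass (0.21 ± 0.11, edgeR adjusted p = 0.82). Polr1a, the largest subunit, had 0.22 ± 0.09 and 0.17 ± 0.08 without a call. Rrn3, which recruits the polymerase, and Ubtf, which binds the ribosomal DNA promoter, had negative values of -0.08 and -0.17 in β-glucan mice and -0.08 and -0.18 in PBS mice, none of them called. The call of Polr1c in PBS mice was lost without HSC replicate 1 or without any 1 of the 4 MPP libraries (adjusted p 0.0558 to 0.0734).

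Of the box C/D proteins, Nop56 and Nop58, the core scaffold pair, were higher in MPP in both treatments, at 0.41 and 0.42 in β-glucan mice and 0.33 and 0.43 in PBS mice on the log2 scale. Rrp9, which binds the U3 RNA, passed in β-glucan mice alone by the threshold, at 0.36 ± 0.08, against 0.25 ± 0.12 in PBS mice, and the difference between the 2 did not pass (0.10 ± 0.14). Fbl, fibrillarin, the methyltransferase of the box C/D particles, was low in these tables. It stood at 31.5, 34.3, 34.1 and 36.3 CPM in MPP and at 30.1, 27.9, 31.0 and 33.9 CPM in HSC of β-glucan mice, and at 29.8, 30.4, 29.2 and 27.9 CPM in MPP and 32.6, 22.1, 26.1 and 34.6 CPM in HSC of PBS mice. The cell types overlapped in both treatments (0.15 ± 0.08 and 0.02 ± 0.12). Of the box H/ACA proteins, Dkc1, dyskerin, the pseudouridine synthase, and its partners Nhp2 and Nop10 were higher in MPP, at 0.45, 0.28 and 0.37 in β-glucan mice and 0.38, 0.35 and 0.36 in PBS mice. The fourth, Gar1, was the least abundant gene of the set, with 38 to 155 counts a library, and had -0.15 ± 0.15 and 0.21 ± 0.21 without a call. In β-glucan mice the call of Nhp2 (adjusted p = 0.0489) was lost under DESeq2's size factors (0.0517) and in 6 of the 8 fits that left out a library (HSC replicates 2, 3 or 4, MPP replicates 1, 2 or 4; 0.0503 to 0.122), and that of Nop10 without MPP replicate 1 (0.0528).

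Among the 9 small-subunit factors, 5 were higher in MPP of β-glucan mice and 2 of PBS mice. Nob1, the nuclease that makes the last cut of the 18S RNA, was higher in both (0.52 ± 0.06 in β-glucan mice and 0.45 ± 0.07 in PBS mice), as was Tsr1, a GTPase-like factor of the late small subunit (0.53 ± 0.08 and 0.35 ± 0.08). Tsr1 is uncertain, since 32.3% of its exonic bases overlap Srr. Wdr43 and Rrp12, factors of early and late small-subunit assembly, and Ltv1, an export factor, passed in β-glucan mice, at 0.37, 0.30 and 0.48, and had 0.15, 0.07 and 0.28 in PBS mice. Utp20, Heatr1, Pno1 and Bysl passed in neither. Bysl, a factor of late small-subunit maturation, had -0.10 ± 0.08 and -0.01 ± 0.07.

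All 8 large-subunit factors were higher in MPP of β-glucan mice, and 7 of the 8 in MPP of PBS mice. Rrp1b, a nucleolar processing factor, stood at 84.96, 85.7, 82.2 and 83.4 CPM in MPP and at 61.2, 62.3, 58.2 and 61.0 CPM in HSC of β-glucan mice, and at 80.8, 79.3, 75.6 and 81.1 CPM in MPP and 55.0, 52.4, 57.7 and 55.2 CPM in HSC of PBS mice. The libraries of one cell type lay close together and far from the other (0.47 ± 0.05 and 0.51 ± 0.06). Pes1, Bop1 and Wdr12 form the PeBoW complex, which is needed to process the large-subunit RNA. Pes1 had 0.29 in both treatments, Wdr12 0.33 in β-glucan mice and 0.35 in PBS mice, and Bop1 0.29 ± 0.07 in β-glucan mice and, without a call, 0.16 ± 0.07 in PBS mice. The others were Nop2, an RNA methyltransferase, at 0.42 and 0.28, Nop16 at 0.40 and 0.31, Nip7 at 0.34 and 0.24, and the helicase Ddx18 at 0.43 and 0.40. Ddx18 shares 62.7%, Pes1 22.6% and Nop56 20.0% of their stretches of 50 bases with other transcripts and are uncertain.

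Further genes of the pathway were counted in lists named beside the set. Like the set, these lists were chosen with earlier results of these data known, and are no independent support. In β-glucan mice 6 of 10 further polymerase I genes, 27 of 36 further small-subunit factors, 27 of 39 further large-subunit factors and 9 of 13 RNA exosome genes were higher in MPP, and 2 large-subunit factors were lower. In PBS mice the counts were 6 of 10, 10 of 36, 16 of 39 and 3 of 13, with 1 exosome gene lower. Examples were Wdr75, a factor of the early small subunit (0.72 ± 0.08 in β-glucan mice), Nifk, a large-subunit factor (0.51 ± 0.05), and Rpf2, which brings the 5S particle into the large subunit (0.44 ± 0.06 in PBS mice). Of 25 other Myc targets 17 were higher and 2 lower in MPP of β-glucan mice, and 12 were higher and 4 lower in PBS mice. The purine enzyme Paics (0.61 ± 0.06 in β-glucan mice) and the ErbB3-binding protein Pa2g4 (0.55 ± 0.06 and 0.43 ± 0.06) were among them, while the mitochondrial prohibitin Phb2 was lower in MPP of PBS mice (-1.02 ± 0.11). Median log2 fold changes of these 5 lists were 0.27 to 0.33 in β-glucan mice and 0.15 to 0.25 in PBS mice.

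**Figure D2:**
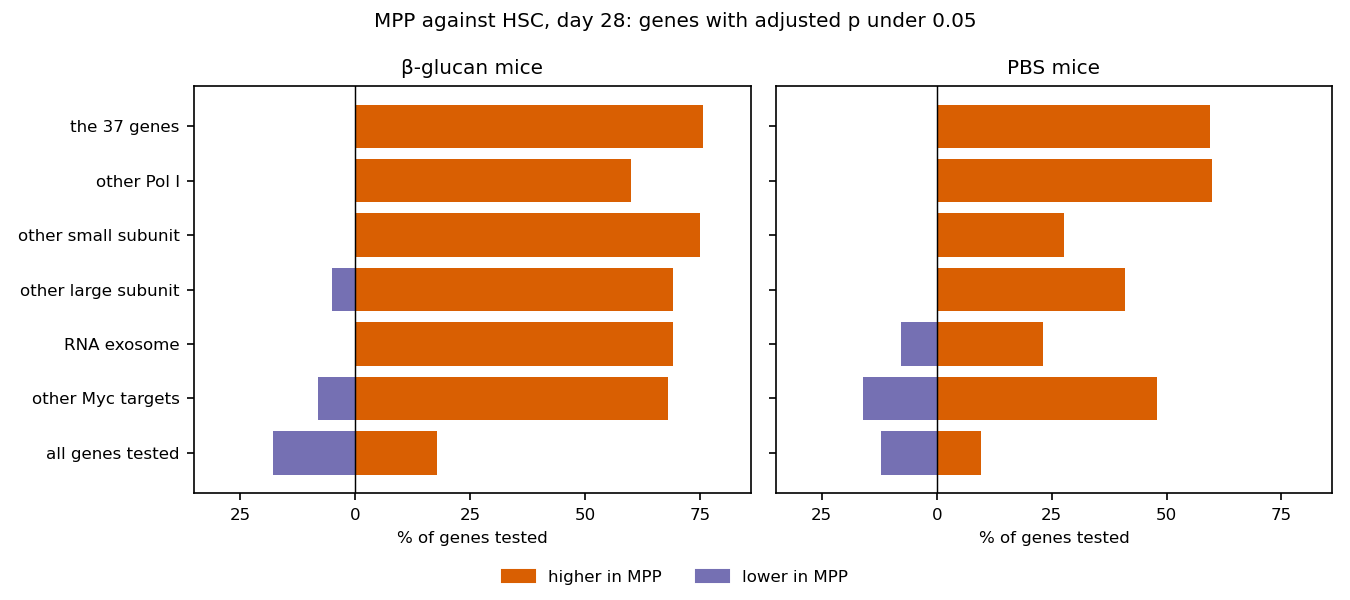
Bars give the percent of tested genes of each list that were higher (right) or lower (left) in MPP than in HSC at day 28 at an adjusted p under 0.05, for β-glucan mice (left panel) and PBS mice (right panel). The 37 genes stand at 75.7% and 59.5% higher, against 17.7% and 9.58% of all genes tested.

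The Myc and Max network was mixed. Of 16 genes, 2 were higher and 5 lower in MPP of β-glucan mice, and 2 were higher and 3 lower in PBS mice. Mycn, a paralogue of Myc known in mouse stem cells, was lower in MPP (-1.39 ± 0.23 in β-glucan mice and -1.68 ± 0.29 in PBS mice), as were the Myc antagonists Mxd1 (-0.78 ± 0.08 and -0.52 ± 0.13) and Mxi1 (-0.56 ± 0.07 and -0.42 ± 0.12). The 2 that were higher were the helicases Ruvbl2 (0.29 ± 0.06 and 0.21 ± 0.05) and Ruvbl1 (0.35 ± 0.08 and 0.23 ± 0.07). Of 20 cell cycle genes, 4 were higher and 2 lower in MPP of β-glucan mice, and 3 were higher and 2 lower in PBS mice. For both lists these counts stand against the 35.6% of all genes tested that passed in either direction in β-glucan mice and the 21.7% in PBS mice, and are no result about the lists. Markers of other cells also differed between MPP and HSC: 8 of 10 erythroid and 7 of 10 neutrophil markers were lower in MPP of β-glucan mice, and 6 and 2 in PBS mice. No marker of either list had a log2 fold change above 0 in either treatment. The neutrophil markers held 5.29 to 6.18% of the counts in MPP and 6.30 to 6.93% in HSC of β-glucan mice, and 6.15 to 7.29% in MPP and 6.93 to 7.57% in HSC of PBS mice. Of 8 B cell markers 4 were higher in MPP of β-glucan mice and 6 in PBS mice. Of 5 plasma cell markers 3 were higher and 1 lower in MPP of β-glucan mice, and 3 were higher and 0 lower in PBS mice. Their median log2 fold changes were 0.78 and 0.77. The part of these markers of other cells in the difference of the 37 genes was not tested. In such bulk samples a change in the mix of cells and a change of RNA per cell cannot be told apart.

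β-glucan was then set against PBS within each sort. In MPP at day 28, Myc and 2 assembly factors were higher in β-glucan mice, and no gene of the set was lower. The 3 genes were 8.11% of the set, where 4.63% of the 15828 genes tested passed in either direction and 2.72% were higher. By edgeR 7 of the 37, 18.9%, had an unadjusted p under 0.05, near the 19.3% of all genes tested. A count this small is no result about the set, and the 3 are described as single genes. Of the 37 values 30 were positive, with a median log2 fold change of 0.07 against -0.00 over all genes. Myc had the 272 to 332 CPM given above in β-glucan MPP, against 227 to 262 CPM in PBS MPP, and every β-glucan library was above every PBS library (log2 fold change 0.30 ± 0.07, edgeR adjusted p = 0.0297). Bysl (chromosome 17, 47599331 to 47611492, - strand) stood at 48.0, 48.5, 46.7 and 51.4 CPM in β-glucan MPP, against 40.7, 41.9, 38.7 and 40.8 CPM in PBS MPP (0.26 ± 0.05, adjusted p = 0.0186 by edgeR). The groups did not overlap, and Bysl overlaps Ccnd3 over 9.37% of its exonic bases. Bop1 (chromosome 15, 76452996 to 76477269, - strand) stood at 60.2, 64.8, 66.7 and 72.0 CPM in β-glucan MPP, against 54.5, 54.3, 56.6 and 53.7 CPM in PBS MPP (0.26 ± 0.06, adjusted p = 0.0298 by edgeR). The β-glucan libraries were again all above the PBS libraries.

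These calls changed as single libraries were left out of the edgeR fit. Without PBS replicate 2, 3 or 4 none of the 37 was called, and without PBS replicate 1 only Myc was. Without β-glucan replicate 3 or 4 only Bysl was, and without β-glucan replicate 1 or 2 the 3 were joined by 2 others, Ubtf with Fbl or Ubtf with Pno1. The log2 fold changes in those fits were 0.24 to 0.30 for Myc, 0.23 to 0.27 for Bysl and 0.21 to 0.27 for Bop1 where the call was lost, with adjusted p between 0.0533 and 0.0984. Pno1, Ubtf and Fbl were next by p, at 0.29 ± 0.08, 0.28 ± 0.08 and 0.21 ± 0.06, without a call (edgeR adjusted p 0.0646, 0.0729 and 0.0755); the 3 did pass under DESeq2, which called 8.23% of all genes tested. With all 4 day 28 groups in 1 fit, which called 1.95% of all genes for β-glucan in MPP, only Bop1 of the 37 was called (edgeR adjusted p = 0.0401), and Myc and Bysl were not (0.0547 and 0.0731).

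**Figure D3:**
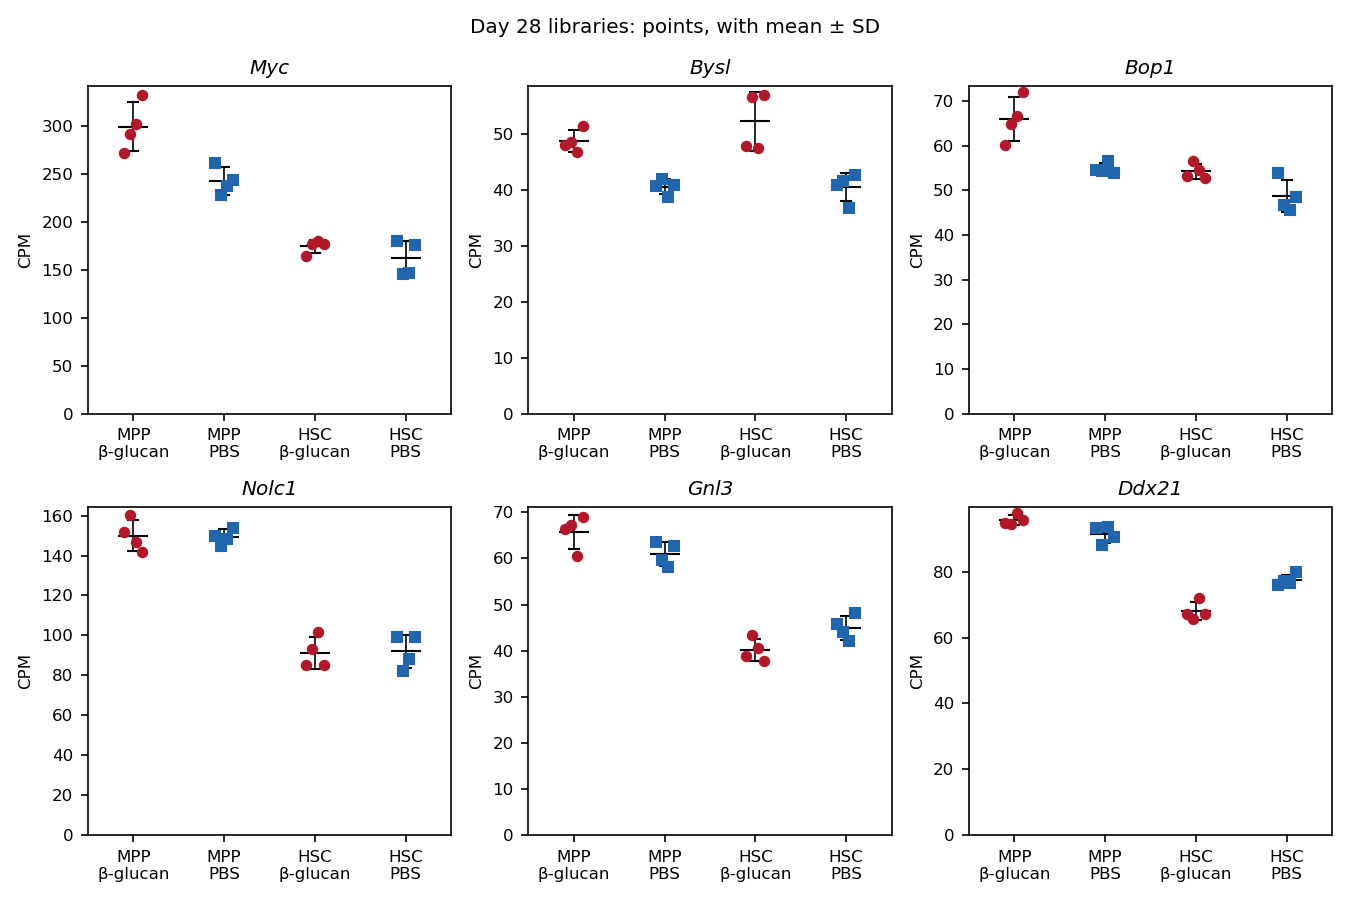
Each point is 1 library's CPM (y axis, from 0) at day 28 for MPP and HSC of β-glucan mice (red circles) and PBS mice (blue squares), with black bars for mean ± SD (4 libraries per group). Myc, Bysl and Bop1 of MPP lie higher in β-glucan than in PBS libraries, and Nolc1, Gnl3 and Ddx21 separate MPP from HSC.

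None of the 6 nucleolar genes was called in MPP. Ncl averaged 721 ± 36.2 CPM in β-glucan MPP and 705 ± 37.1 CPM in PBS MPP (SD, n = 4 each), a log2 fold change of 0.03 ± 0.06. Npm1 had 0.10 ± 0.05, Nolc1 0.00 ± 0.05, Mybbp1a -0.00 ± 0.05, Gnl3 0.10 ± 0.05 and Ddx21 0.06 ± 0.04. Of the other lists, 1 of 36 further small-subunit factors (Wdr46, 0.56 ± 0.14), 2 of 39 large-subunit factors (Ppan, 0.39 ± 0.10, and Senp3, 0.38 ± 0.10), 1 of 13 exosome genes (Exosc3, 0.58 ± 0.09) and 2 of 25 Myc targets (Phb2, 1.21 ± 0.19, and Eif4ebp1, 0.29 ± 0.07) were higher in β-glucan MPP and none was lower. Over all genes tested 4.63% passed in either direction and 2.72% were higher, and counts this small are no result about these lists. Ppan is known as a large-subunit factor and Eif4ebp1 as a repressor of cap-dependent translation. Beside these, 7 of 8 B cell markers and 5 of 10 neutrophil markers were lower and 2 neutrophil markers higher in β-glucan MPP. Of the remaining lists, lower members numbered 2 of 6 for T and NK cells, 1 of 5 plasma cell markers was higher and 1 lower, 2 of 20 cell cycle genes were higher (Mcm6, 0.83 ± 0.15, and Mcm2, 0.20 ± 0.05), and 1 of 6 progenitor markers and 1 of 10 erythroid markers were higher. Those were Flt3, at 62.2 CPM in β-glucan MPP against 34.3 CPM in PBS MPP, and Klf1, an erythroid transcription factor. Klf1 stood at 48.7 CPM in β-glucan MPP against 16.1 CPM in PBS MPP. It did not stand for its list, where 2 of 10 erythroid values were positive, with a median log2 fold change of -0.19. The 10 erythroid markers averaged 14.0% of the counts in β-glucan MPP and 16.7% in PBS MPP. Of 10 stem cell markers and 16 genes of the Myc and Max network 0 were called. Their part in the values of the 37 genes was not tested.

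In HSC no gene of the set was called by edgeR with all libraries of the groups compared, and no others, in the fit. At day 7, 0 of 37 passed in edgeR where 6.72% of the 16403 genes tested did, 3 of them, 8.11%, had an unadjusted p under 0.05 against 20.0% of all genes, and DESeq2 called 0 against 10.4%. The share was thus below that of all genes, and the 3 are described as those of smallest p. They were Polr1a, Utp20, a U3 particle protein, and Bop1. Polr1a stood at 44.5, 41.9 and 46.8 CPM in β-glucan HSC, against 51.8, 69.8, 47.0 and 55.2 CPM in PBS HSC (-0.33 ± 0.13, edgeR adjusted p = 0.155). All 3 β-glucan libraries were below the lowest PBS library, by a small margin. Utp20 stood at 17.9, 12.4 and 12.9 CPM in β-glucan HSC, against 17.5, 20.9, 17.4 and 21.0 CPM in PBS HSC (-0.41 ± 0.16, edgeR adjusted p = 0.16). β-glucan replicate 1 lay within the PBS range, and without it Utp20 was called lower (-0.60 ± 0.16, adjusted p = 0.0417). Bop1 stood at 63.3, 59.9 and 70.5 CPM in β-glucan HSC, against 61.4, 57.1, 45.2 and 49.7 CPM in PBS HSC (0.27 ± 0.11). The groups overlapped.

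Myc at day 7 had 284, 217 and 270 CPM in β-glucan HSC, against 318, 291, 224 and 251 CPM in PBS HSC (-0.08 ± 0.13). Ncl had 829, 732 and 860 CPM in β-glucan HSC, against 944, 861, 764 and 855 CPM in PBS HSC (-0.09 ± 0.09). Npm1 had 822, 716 and 763 CPM in β-glucan HSC, against 722, 744, 750 and 829 CPM in PBS HSC (0.01 ± 0.08). All 3 overlapped between the groups, as did Fbl with 10.6, 8.50 and 11.5 CPM in β-glucan HSC, against 13.8, 10.3, 11.5 and 9.13 CPM in PBS HSC. The median of the 37 genes was -0.02 against -0.01 over all genes. Among the other lists, 4 of 20 cell cycle genes were lower in β-glucan HSC (Mki67, a marker of dividing cells, log2 fold change -0.70 ± 0.10), 9 of 10 erythroid and 7 of 8 B cell markers were lower, and 8 of 10 neutrophil markers were higher. Erythroid markers held 2.19 to 3.06% of the counts in β-glucan HSC and 6.59 to 8.06% in PBS HSC. Of 25 other Myc targets, 2 were lower in β-glucan HSC, Tfrc, the transferrin receptor (-0.71 ± 0.11), and Odc1, ornithine decarboxylase (-0.71 ± 0.17). Ldha, lactate dehydrogenase A (0.30 ± 0.07), was the 1 that was higher. Of these 25 values 13 were positive, with a median of 0.00, and 6.72% of all genes tested passed in either direction.

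At day 28 in HSC, 0 of 37 passed in edgeR where 0.0374% of the 16025 genes tested did, 6 of them, 16.2%, had an unadjusted p under 0.05 against 17.0% of all genes, and DESeq2 called 1, Bysl, where it called 3.68% of all genes. None of these shares was above that of all genes. Bysl stood at 47.9, 56.7, 47.5 and 57.0 CPM in β-glucan HSC, against 40.9, 41.6, 36.8 and 42.6 CPM in PBS HSC (0.36 ± 0.09, edgeR adjusted p = 0.14). The groups did not overlap, as in MPP. Ddx21 stood at 67.1, 65.7, 71.9 and 67.2 CPM in β-glucan HSC, against 75.9, 77.2, 76.6 and 79.9 CPM in PBS HSC (-0.20 ± 0.07, edgeR adjusted p = 0.182), again with no overlap. Ubtf stood at 74.2, 79.2, 87.4 and 94.1 CPM in β-glucan HSC, against 73.4, 72.0, 65.9 and 64.0 CPM in PBS HSC (0.27 ± 0.09, edgeR adjusted p = 0.183). Its libraries did not overlap either, though they nearly met. With all 4 day 28 groups in 1 fit, Bysl (0.37 ± 0.07, adjusted p = 0.0145) and Ddx21 (-0.19 ± 0.05, adjusted p = 0.0439) were called, 2 of the 37 genes where that fit called 4.13% of the 16691 genes tested. Myc had 0.09 ± 0.09, Ncl -0.08 ± 0.11, Npm1 -0.08 ± 0.08 and Fbl 0.08 ± 0.13, with the library values given above.

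After 5-FU, 0 of 37 passed in edgeR where 0.0446% of the 15705 genes tested did, 1 had an unadjusted p under 0.05, 2.7% against 7.54% of all genes, and DESeq2 called 0 against 0.936%. The smallest p was that of Nhp2, which stood at 77.2, 75.3, 78.6 and 80.8 CPM in β-glucan HSC, against 88.5, 84.0, 90.8 and 79.3 CPM in PBS HSC (-0.14 ± 0.06, edgeR adjusted p = 0.65). Only the highest β-glucan library reached the PBS range. Pes1 stood at 49.2, 58.4, 59.1 and 56.1 CPM in β-glucan HSC, against 63.6, 70.0, 58.8 and 55.9 CPM in PBS HSC (-0.16 ± 0.08), and Nop10 at 163, 187, 188 and 191 CPM in β-glucan HSC, against 200, 195, 210 and 181 CPM in PBS HSC (-0.11 ± 0.07). Both overlapped. Myc stood at 73.4, 68.5, 88.2 and 87.2 CPM in β-glucan HSC, against 73.8, 75.2, 80.9 and 66.4 CPM in PBS HSC (0.10 ± 0.09). Ncl had 240, 244, 235 and 245 CPM in β-glucan HSC, against 271, 262, 223 and 225 CPM in PBS HSC. Npm1 had 374, 338, 353 and 355 CPM in β-glucan HSC, against 366, 365, 358 and 331 CPM in PBS HSC. The values of Fbl were 15.7, 15.5, 14.6 and 16.9 CPM in β-glucan HSC, against 16.2, 17.6, 18.05 and 15.9 CPM in PBS HSC. These 4 genes overlapped between the groups. Erythroid markers held 9.43 to 12.5% of the counts in β-glucan HSC and 12.6 to 16.5% in PBS HSC, with no marker called, and their part was not tested.

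**Figure D4:**
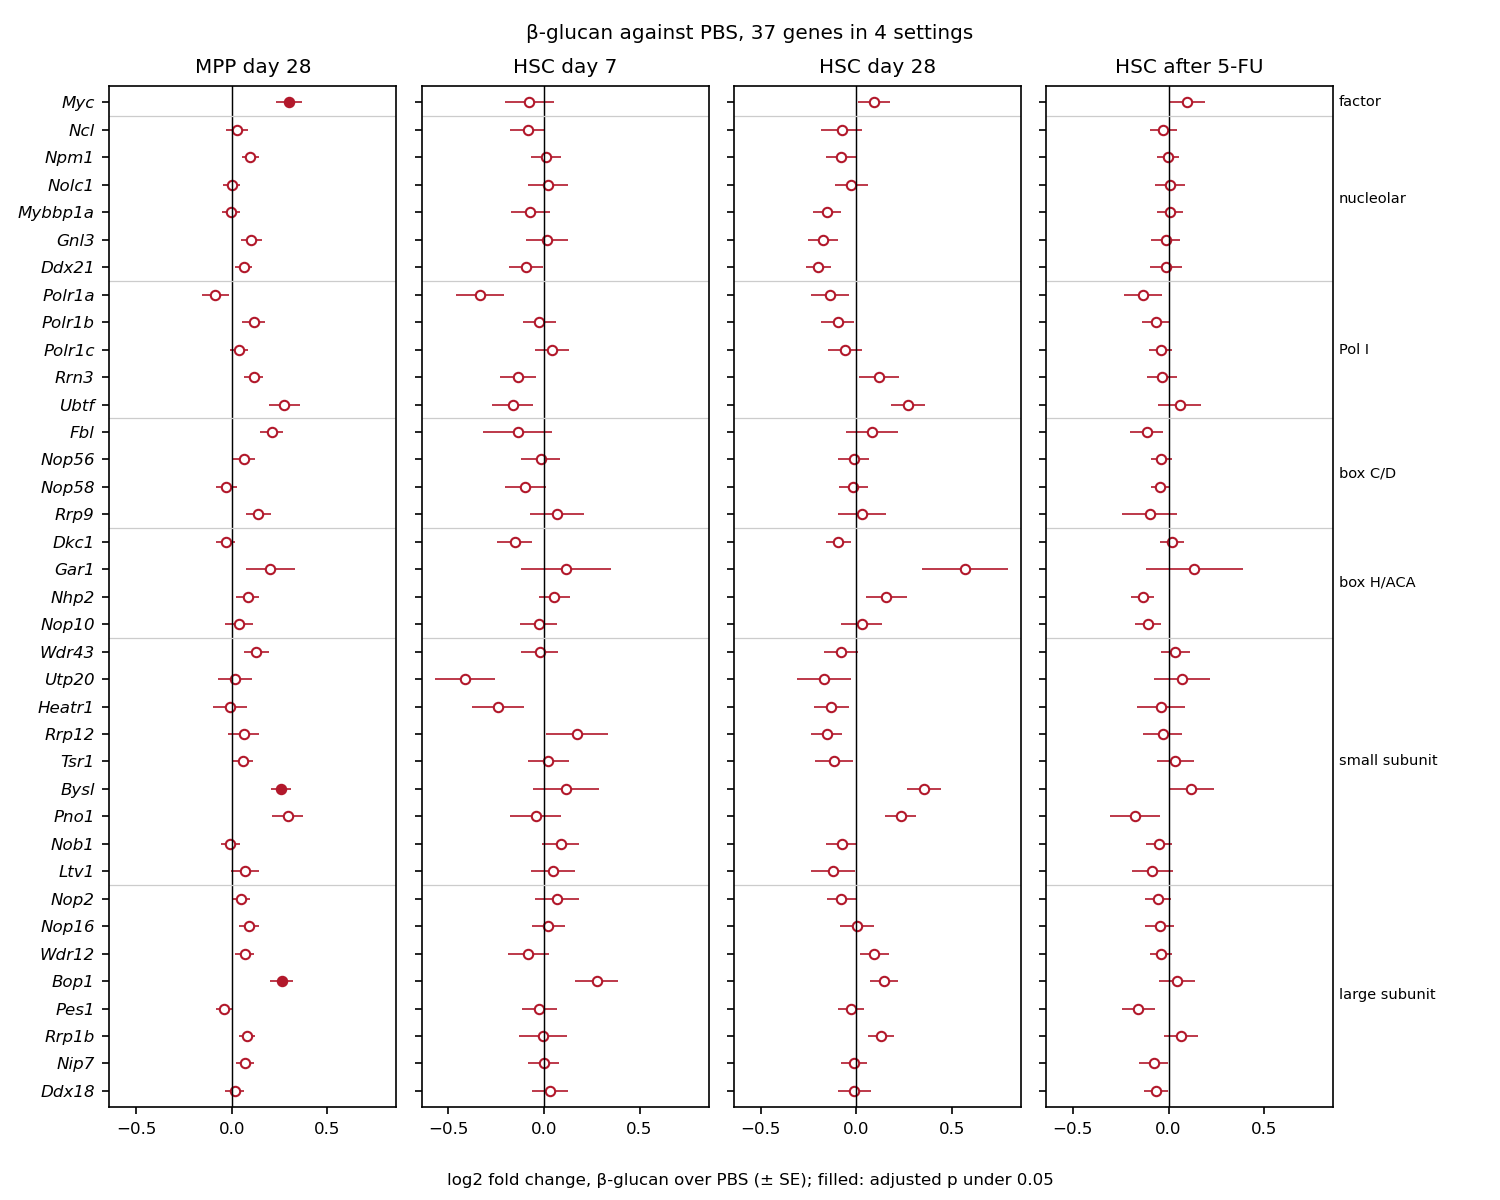
The log2 fold change of β-glucan over PBS (x axis) is drawn with its SE for the 37 genes by role in MPP at day 28, HSC at day 7, HSC at day 28 and HSC after 5-FU; filled points passed an adjusted p of 0.05. Only Myc, Bysl and Bop1 in MPP are filled, at 0.30, 0.26 and 0.26, and most other points lie near 0.

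The differences between these effects were tested directly, since a call in one sort and none in another shows no difference. For β-glucan in MPP minus β-glucan in HSC at day 28, 0 of 37 genes passed where 0.00599% of the 16691 genes tested did, 2 had an unadjusted p under 0.05, 5.41% against 6.19% of all genes, and DESeq2 called 0 against 0.0120%. The same contrast is the MPP against HSC difference of β-glucan mice minus that of PBS mice, so the 28 and 22 genes called there are not shown to differ. Ddx21 (0.25 ± 0.07, edgeR adjusted p = 0.677), Gnl3 (0.27 ± 0.09, adjusted p = 0.697) and Npm1 (0.17 ± 0.09, adjusted p = 0.811) had the smallest p. Myc had 0.20 ± 0.11. For β-glucan in HSC at day 28 minus day 7, 0 of 37 passed where 4.82% of the 17977 genes tested did, 1 had an unadjusted p under 0.05, 2.7% against 19.0% of all genes, and DESeq2 called 0 against 7.97%. Ubtf (0.41 ± 0.14, edgeR adjusted p = 0.111), Rrp12 (-0.35 ± 0.18) and Pno1 (0.25 ± 0.15) came first. For HSC after 5-FU minus HSC at day 28, 0 of 37 passed where 0.106% of the 16985 genes tested did, 2 had an unadjusted p under 0.05, 5.41% against 11.3% of all genes, and DESeq2 called 0 against 0.889%. Pno1 (-0.43 ± 0.16, edgeR adjusted p = 0.323), Nhp2 (-0.31 ± 0.13) and Bysl (-0.25 ± 0.15) came first. These comparisons reuse the libraries of the effects they subtract.

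Levels across the 3 tables are given without a test, since the table and the day or drug cannot be told apart. TMM was computed within each table, so it does not correct for differences in RNA composition between tables. The summed CPM of the 37 genes averaged 4712 ± 102 in MPP of β-glucan mice and 4466 ± 118 in MPP of PBS mice. In HSC it averaged 5340 ± 504 (SD, n = 3) in β-glucan mice and 5470 ± 202 in PBS mice at day 7, 3410 ± 90.7 in β-glucan mice and 3425 ± 154 in PBS mice at day 28, and 2161 ± 39.1 in β-glucan mice and 2211 ± 77.1 in PBS mice after 5-FU (SD, n = 4 for the other groups). Fbl, in contrast to the sum, had 8.50 to 13.8 CPM at day 7, 22.1 to 34.6 CPM at day 28 and 14.6 to 18.05 CPM after 5-FU in HSC. Markers of the sorts and of other cells also differed between the tables. In HSC of PBS mice Flt3 averaged 177 CPM at day 7, 16.7 CPM at day 28 and 4.11 CPM after 5-FU. Cd34 averaged 566, 116 and 55.4 CPM there, against 280 CPM in MPP of PBS mice at day 28. The progenitor markers Mpo and Top2a went the other way between day 7 and day 28 (3398 against 5180 CPM and 544 against 631 CPM). Procr, a stem cell marker, averaged 53.1, 7.80 and 9.38 CPM. In HSC of PBS mice the erythroid markers averaged 7.03% of the counts at day 7, 18.9% at day 28 and 14.3% after 5-FU. In HSC of β-glucan mice they averaged 2.64, 17.1 and 11.4%. Neutrophil markers averaged 5.71, 7.32 and 16.4% in PBS mice, and 9.53, 6.56 and 16.3% in β-glucan mice. Their part in the sums was not tested. Per kilobase of exon, which sets genes of unlike length side by side, Npm1 stood highest in MPP of β-glucan mice at 228 CPM per kb, then Nop10 at 207, Nhp2 at 131 and Myc at 108. The lowest were Utp20 at 1.89 and Gar1 at 2.21 CPM per kb.

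**Figure D5:**
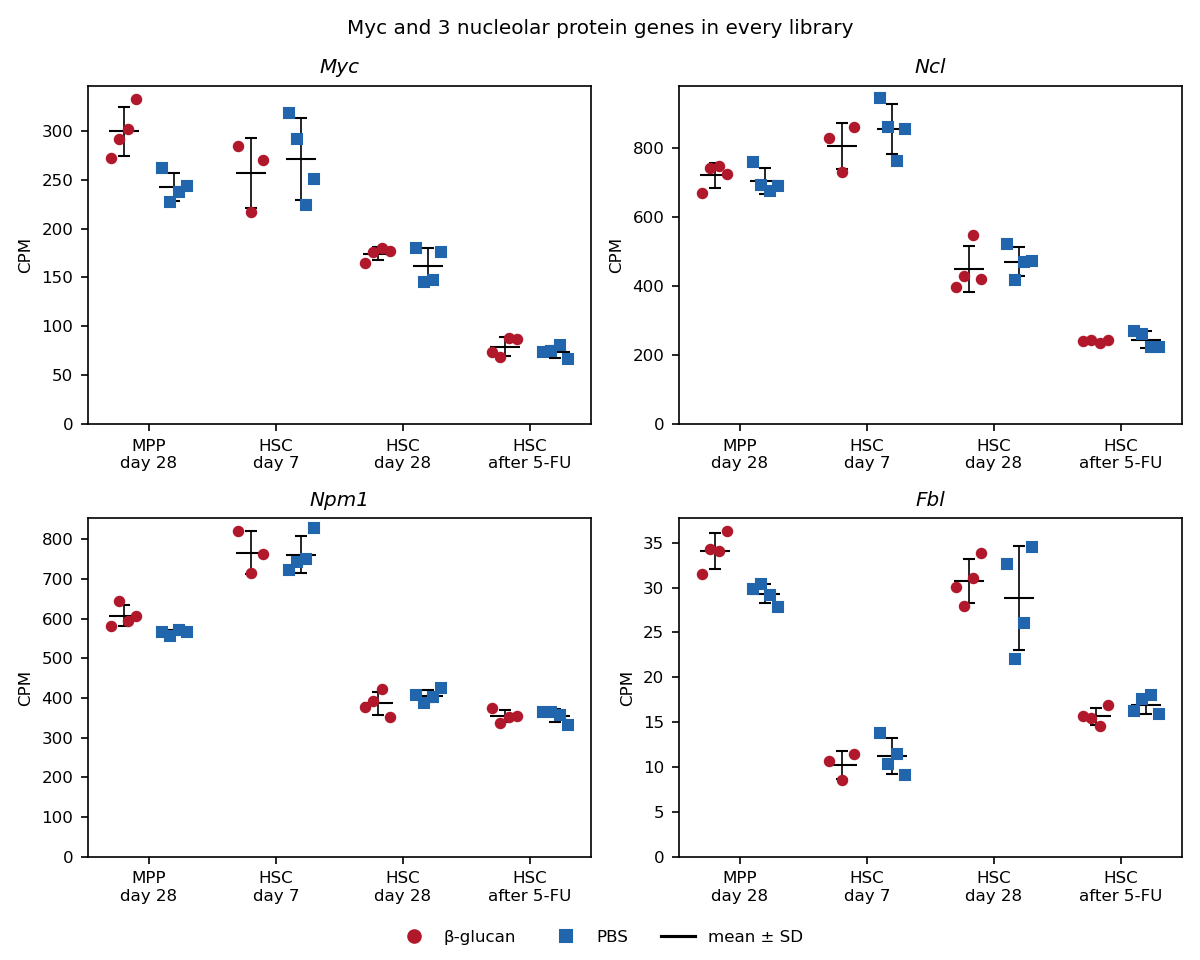
Points are the CPM (y axis) of single libraries for Myc, Ncl, Npm1 and Fbl in MPP at day 28 and in HSC at day 7, day 28 and after 5-FU, with β-glucan (red circles) left of PBS (blue squares) and bars for mean ± SD. Myc lies between 66.4 and 88.2 CPM after 5-FU and between 217 and 318 CPM in HSC at day 7, and the treatments overlap in both. TMM was computed within each table and not across them.

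Some counts cannot be tied to 1 gene. The library kit does not mark strand, and 15 of the 37 genes overlap exons of other genes. In 5 genes over 10% of the stretches of 50 bases were shared with other transcripts (Ddx18, Npm1, Tsr1, Pes1 and Nop56), and in 24 under 1% were. Within the bounds of 7 genes lie 21 small nucleolar RNA genes, 5 of them in Nop56 and 4 in Nop58; such RNAs are known to guide the box C/D and box H/ACA particles.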

How the data were processed

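The authors deposited 3 tables of raw read counts per Ensembl gene, with featureCounts, bcl2fastq 1.8.4 and the mm10 build named per the submitters' processing notes; an aligner was not given in the sources used here. Libraries were made with the SMARTer Ultra HV v2 kit per the labels' protocols. The tables held 7, 16 and 8 libraries, and 0 columns of other libraries. Genes were filtered with filterByExpr (minimum count 10), scaled by TMM and tested with the quasi-likelihood test of edgeR 4.0.16 (R 4.3.3, limma 3.58.1), Benjamini-Hochberg adjusted over all genes tested, threshold 0.05; an SE is the absolute log2 fold change over the root of F. Differences of effects were contrasts of 4 groups in 1 fit. Scripts were tested on simulated data. Alternatives were DESeq2 1.42.0, its size factors, library totals, no filter, a replicate block, all day 28 groups in 1 fit, and leaving out each library. Members and lists were chosen with earlier results of these data known. Library values are given for Myc, Ncl, Npm1, Fbl and the 3 genes of smallest p per comparison; other genes are named by the smallest p of their list.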

Additional observations from a re-analysis of the deposited data

Results flagged for a closer look

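In 6 of 133 groups of 4 libraries examined, 1 library stood apart from the other 3 by Dixon's test; chance alone gives about 1 in 20. Pno1 had 24.8 CPM in HSC of PBS mice at day 7, replicate 3, where the others had 30.3 to 30.6. It had 42.5 CPM in MPP of β-glucan replicate 4, where the others had 34.1 to 34.6. Rrp12 had 47.6 CPM in MPP of β-glucan replicate 1, where the others had 39.2 to 40.4. Nop10 had 193 CPM in MPP of β-glucan replicate 3, where the others had 241 to 243, and 163 CPM in HSC of β-glucan mice after 5-FU, replicate 1, where the others had 187 to 191. Polr1a had 36.6 CPM in HSC of PBS mice after 5-FU, replicate 4, where the others had 27.8 to 29.3.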

How the results depend on the processing

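No result changed sign in a called value, and the cause of each change below was not tested. Of the 37 genes, β-glucan in MPP gave 3 calls, against 7 with library totals, 5 with no filter, 6 with DESeq2, 1 with all 4 day 28 groups in 1 fit and 0 to 5 without single libraries. In HSC at day 28 DESeq2 gave 1 and the 4-group fit 2, and at day 7 leaving out a library gave 0 to 1. For the effect at day 28 minus day 7, library totals gave 1 (Ubtf, 0.54 ± 0.15, adjusted p = 0.0491). MPP against HSC gave 26 to 29 in β-glucan mice and 21 to 23 in PBS mice without single libraries; Rrn3 was then called lower (-0.16 ± 0.05) without HSC β-glucan replicate 3. Over all genes, HSC at day 7 gave 1102 calls, 1711 with DESeq2, 645 with the replicate block and 500 to 1252 without single libraries. HSC at day 28 gave 6, against 21 with library totals, 182 with no filter, 589 with DESeq2, 14 with the block, 690 with 4 groups and 1 to 51 without single libraries. MPP gave 733, against 1181 with no filter, 1302 with DESeq2, 326 with 4 groups and 164 to 1010 without single libraries. HSC after 5-FU gave 7, against 37 with library totals, 110 with no filter, 147 with DESeq2, 16 with the block and 2 to 61 without single libraries. MPP against HSC in PBS mice gave 3493, and 2004 to 5050 without single libraries, the lowest without MPP replicate 1. The effect in MPP minus HSC gave 1, against 2 with no filter, 2 with DESeq2 and 1 to 3 without single libraries. Day 28 minus day 7 gave 866, against 1432 with DESeq2 and 445 to 1051 without single libraries. After 5-FU minus day 28 gave 18, against 59 with no filter, 151 with DESeq2, 7 with the block and 6 to 49 without single libraries.

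Library totals moved the median of all genes to 0.09 for β-glucan in MPP and to 0.11 for day 28 minus day 7, and the members' medians to 0.15 and 0.10. Same-numbered libraries correlated at -0.08 to 0.15, not over 0.1 for every pair of any comparison, and were not treated as paired. In MPP against HSC of β-glucan mice 4 of 4 correlated best with their own number (0.08 to 0.15), and 2 of 4 did in PBS mice. Between β-glucan and PBS at day 28, 3 of 4 did in HSC and 3 of 4 in MPP. At day 7 it was 0 of 3, and after 5-FU 0 of 4. Whether equal numbers stand for paired sorts or another tie was not tested, and the labels give neither. With the replicate block 32 of the 37 genes were called in MPP against HSC of β-glucan mice, Ubtf lower (-0.17 ± 0.05). In all, 6706 genes were called there against 5678. β-glucan in MPP gave 3 of the 37. Depth limits Gar1 most, with 38 to 155 counts a library.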
